A study of Homo sapiens with 6 samples.

Results

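Intron retention was compared between K562 cells carrying the second of 2 shRNAs against ZRSR2 (sh2) and K562 cells carrying a control shRNA (Con_sh). K562 is a human leukaemia line with erythroid and megakaryocytic features. The comparison took 4 of the 6 libraries of the series, 2 titled K562_ZRSR2_sh2 and 2 titled K562_Con_sh, and the experiment numbers in their titles (Exp1 and Exp2) serve as replicate numbers. Its members were those introns whose boundary and spliced reads together averaged 20 or more over these 4 libraries, 133882 of the 241593 introns listed. The cells of all 4 libraries were grown in the same serum-containing medium and were transduced, so no library of this comparison came from untreated cells, and polyA RNA was sequenced. The labels gave neither the hairpin sequences nor the time after transduction, and left it unsaid whether replicate libraries were separate cultures, so p-values measure only the spread between these libraries, which may be technical.

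ZRSR2 is a subunit of the minor spliceosome, the machinery that removes the small class of U12-type introns, and takes part in recognising the 3′ splice site of these introns. Most genes that have a U12-type intron have only 1, lying among ordinary U2-type introns that the major spliceosome removes. When the minor spliceosome is impaired, U12-type introns are known to stay in the RNA while neighbouring introns are spliced. ZRSR2 is mutated in some myelodysplastic syndromes, where blood cell formation fails.

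For each intron the tables counted reads that cross its 5′ and its 3′ boundary with the exons, and reads that join the exons across it. Boundary reads were taken as a measure of unspliced RNA, but reads of other transcripts can enter them where introns or genes overlap. Of the tested introns, 28.5% overlapped another listed intron and 10.5% another gene. Retention is a percentage, the boundary reads divided by their sum with 2 times the spliced reads. The test asked whether boundary reads changed against spliced reads, and a log2 fold change refers to that ratio, sh2 over control. Positions are given as the tables list them, and behaved as GRCh38. No genome sequence was used here, so introns were not classed by their splice sites.

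Boundary reads over all listed introns came to 4440979 and 4745918 in control replicates 1 and 2 and to 5199693 and 4470795 in sh2 replicates 1 and 2. The sums of spliced reads were 86235725 and 101120454 for the control and 86435477 and 87795039 for sh2. Over all listed introns together, retention was 2.51% and 2.29% in the control and 2.92% and 2.48% in sh2, so that sh2 replicate 2 lay just under control replicate 1. The members closest to the read minimum, with 20 to under 22 reads on average (1652 introns), had median retention of 1.94% and 2.13% in the control and 2.56% in both sh2 libraries, and none was called. Those just below the minimum, with 18 to under 20 reads (1961 introns), had medians of 0 in both control libraries and 2.22% and 2.13% in sh2.

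ZRSR2, the targeted gene, was lower in both sh2 libraries. Its spliced reads, summed over introns that do not overlap and scaled to the library (CPM), were 28.03 and 23.7 CPM in the control and 10.4 and 12.8 in sh2. The groups did not overlap, and the fold change did not pass the test across all genes with edgeR's quasi-likelihood test (log2 fold change -1.16, SE 0.24, adjusted p = 0.69), while DESeq2 gave an adjusted p of 0.007501. With the Benjamini-Hochberg adjustment at 0.05, edgeR called 0 of 16680 genes at this level (1151 had an unadjusted p under 0.05) and DESeq2 called 141. Leaving out sh2 replicate 2 brought the edgeR count to 105 genes.

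Retention rose at 372 introns and fell at 31. These were 0.278% and 0.0232% of the tested introns (0.301% together), and 6135 introns had an unadjusted p under 0.05. The 372 more retained introns lay in 269 of 13882 genes (1.94%). Their median retention was 2.09% and 1.83% in the control libraries and 18.4% and 10.3% in the sh2 libraries. The median of introns that were not called was 1.19% and 1.33% in the control and 1.44% and 1.47% in sh2.

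Both sh2 libraries lay above both control libraries at 369 of the 372 introns, against 20.3% of all tested introns. The mean rise had a median of 12.3 percentage points, with quartiles of 4.32 and 22.7. It reached at least 10 points at 204 introns and at least 20 points at 118, and stayed under 2 points at 40. At 29 introns mean retention with sh2 was 50% or more, and at 8 introns both control libraries had no boundary read. The sh2 libraries were not alike: retention was higher in replicate 1 than in replicate 2 at 356 of the 372 introns. The median rise over the control mean was 15.9 points in replicate 1 and 7.62 points in replicate 2.

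The ratio also shifted slightly over all introns. The median log2 fold change of all tested introns was 0.17, and 60.1% of them had a fold change above 0. With offsets from edgeR's TMM factors the median of all introns was 0.02, and 377 introns were more and 43 less retained, of which 346 and 31 were in the first count. The median log2 fold change of the 372 introns was 2.70. Without sh2 replicate 1 the count of calls in either direction fell from 403 to 130, and without control replicate 2 to 208, and DESeq2 gave 149.

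**Figure D1:**
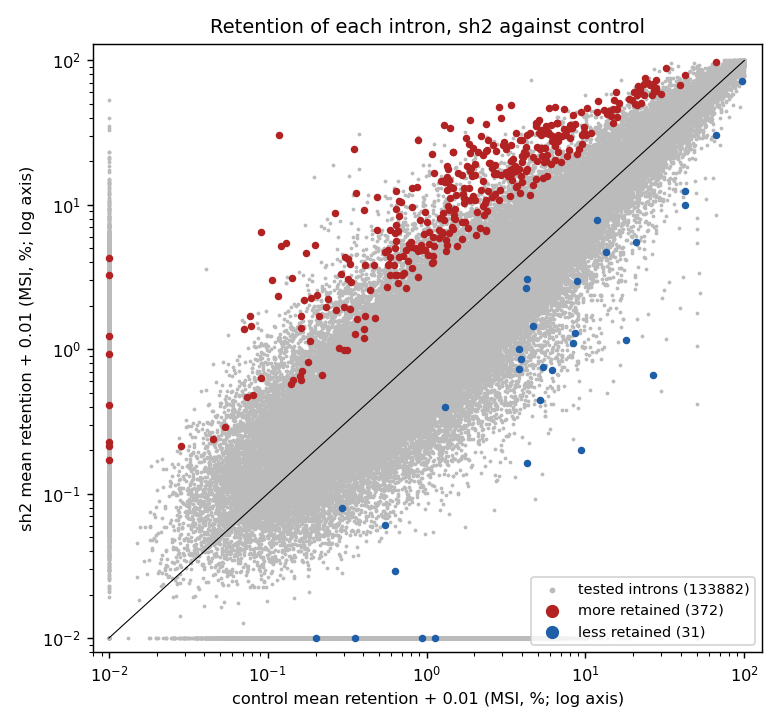
Mean retention of each intron in the 2 control libraries (x axis, percent) against the 2 sh2 libraries (y axis, percent), both on log axes after adding 0.01. Grey points are the 133882 tested introns, red points the 372 more retained and blue points the 31 less retained introns, and the line marks equal retention. Red points lie above the line over most of the range of control retention.

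The change came mainly from boundary reads. After scaling by library, boundary reads were higher in both sh2 libraries than in both controls at 361 of the 372 introns (97.0%), against 20.6% of introns not called. Spliced reads were lower in both sh2 libraries at 169 of the 372 (45.4%, against 15.0% of introns not called) and higher in both at 46. Over the 372 introns, the median ratio of sh2 to control was 5.57 for boundary reads and 0.85 for spliced reads. Since the introns were called on the ratio of these 2 counts, these shares describe the calls and are no separate test.

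The same choice of introns bears on their level of spliced reads, since a call on this ratio favours introns with low spliced reads in sh2. The values are given as a description, with no test. Relative to the control mean, the median spliced count was 0.773 and 0.897 in sh2 at the more retained introns. At 3700 other tested introns of the same genes it was 1.04 and 1.07. At the 129702 introns of the remaining set, which includes introns without a single gene, it was 0.998 and 1.03. The control libraries stood at 0.994 and 1.01 at the more retained introns and at 0.981 and 1.02 at the other introns of the same genes. 

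**Figure D2:**
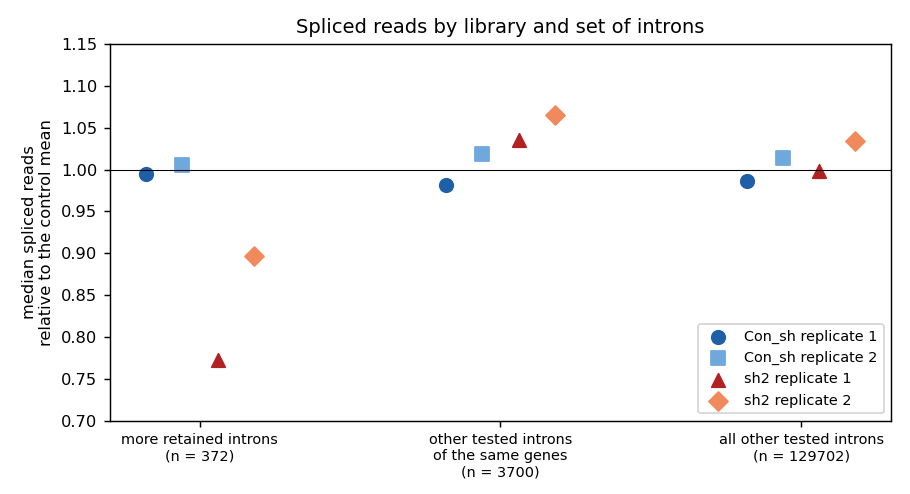
Median spliced reads of each library relative to the control mean (y axis, ratio), by set of introns (x axis). The sets are the more retained introns, the other tested introns of the same genes and all other tested introns. Each point is 1 library. The sh2 libraries lie at 0.773 and 0.897 for the more retained introns and between 0.998 and 1.07 for the others, and the first set was called on a ratio that holds these reads.

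An intron that stays in the RNA has reads at both ends, and the ends were also tested alone. In these tests the 5′ boundary gave 194 more retained introns (0.145% of those tested) and the 3′ boundary 244 (0.182%). Taken by coordinate instead, the lower end gave 215 (0.161%) and the higher end 217 (0.162%). The 372 introns were called on the sum of both boundaries, so their values at each boundary describe the calls and support nothing further. Among them, the log2 fold change was above 0 at the 5′ boundary for 367 and at the 3′ boundary for 372, with a median of 2.73 at either. Both boundaries passed the test on their own at 140 of them and neither at 105. Summed over the 372 introns, 5′ reads over 3′ reads gave 1.02 and 1.07 in the control and 1.06 and 1.08 in sh2. Of the 364 introns with at least 20 boundary reads in sh2, 19 had 80% or more of them at the 3′ boundary and 19 at the 5′ boundary. These were 5.22% each, against 18.8% and 11.3% of the introns not called. Counting the smaller boundary 2 times in place of the sum left 12 calls.

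**Figure D3:**
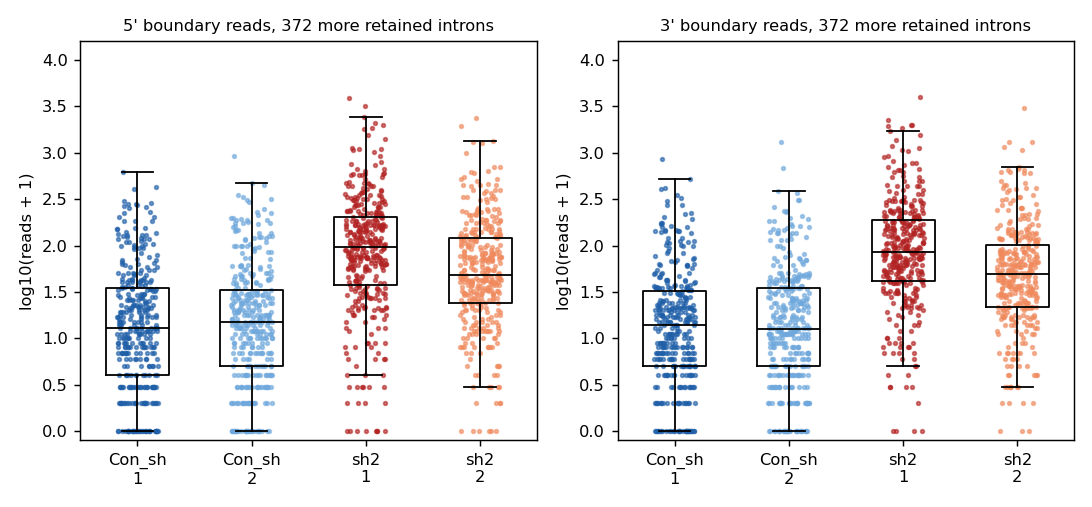
Reads at the 5′ boundary (left) and the 3′ boundary (right) of the 372 more retained introns in each library, as log10(reads + 1). Points are introns, boxes span the quartiles with the median, and whiskers reach the last point within 1.5 box lengths. The medians of both sh2 libraries stand above those of both control libraries at either boundary, whose sum was used to call these introns.

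Read cover over the body of the introns was higher in sh2. Reads across a boundary also cover intron bases, so this measure is not separate from the call. The mean covered fraction of the 372 introns was 0.890 and 0.903 in the control and 0.966 and 0.957 in sh2, or 0.897 ± 0.010 and 0.962 ± 0.007 (SD, n = 2 each). The groups did not overlap, but an exact permutation test of 2 against 2 libraries cannot go below 0.33. Introns covered over at least 95% of their bases made up 73.4% and 74.2% of the 372 in the control and 90.9% and 89.5% in sh2. For the introns not called the share was 34.087% and 34.005% in the control and 37.38% and 34.021% in sh2.

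Taking 1 intron per gene, the 12 more retained introns with the lowest adjusted p-values were nearly always spliced in control cells, with retention of at most 3.59%. ZNF207, which encodes a microtubule-binding protein of the mitotic spindle, had an intron (chr17:32351630-32351742, 113 nt) with retention of 0.265% and 0.245% in the control libraries and 11.5% and 6.04% in the sh2 libraries (log2 fold change 5.16, SE 0.41, adjusted p = 8.36e-32). Reads at its 3′ boundary were 10 and 25 in the control and 1384 and 614 in sh2, and at its 5′ boundary 19 and 14 in the control and 436 and 230 in sh2. Both sh2 libraries were far above the controls at either end, and the 3′ end had the more reads in sh2.

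PARP1 encodes the main poly(ADP-ribose) polymerase, which marks DNA breaks. Retention of its intron (chr1:226361542-226361968, 427 nt) was 1.07% and 1.06% in the control libraries and 29.6% and 15.1% in the sh2 libraries (log2 fold change 4.66, SE 0.41, adjusted p = 4.08e-25). Spliced reads there were 2117 and 3452 in the control and 1316 and 2591 in sh2, so replicate 1 of sh2 stood below both controls and replicate 2 between them.

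UFD1 is a partner of the p97 ATPase, which pulls misfolded proteins out of the endoplasmic reticulum. Its intron (chr22:19465275-19467872, 2598 nt) had retention of 1.68% and 2.02% in the control libraries and 32.8% and 19.96% in the sh2 libraries (log2 fold change 4.21, SE 0.38, adjusted p = 2.32e-24). Reads at the 5′ boundary were 93 and 147 in the control and 2072 and 1341 in sh2, and at the 3′ boundary 101 and 153 in the control and 1937 and 1304 in sh2, close to each other in every library. TMEM258 belongs to the oligosaccharyltransferase, which adds sugars to new proteins in the same compartment, and had retention of 2.22% and 2.9998% in the control libraries and 32.7% and 19.3% in the sh2 libraries at its intron (chr11:61789922-61790492, 571 nt; log2 fold change 3.68, SE 0.37, adjusted p = 1.14e-18). Spliced reads of that intron were 11362 and 8876 in the control and 2278 and 4062 in sh2, lower in both sh2 libraries.

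SRP68, a protein of the signal recognition particle, had one of the lower levels in this group. Retention of its intron (chr17:76070445-76072307, 1863 nt), which overlaps the gene GALR2, was 0.179% and 0.151% in the control libraries and 6.26% and 3.02% in the sh2 libraries (log2 fold change 4.78, SE 0.48, adjusted p = 1.21e-18).

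VPS25, a subunit of the ESCRT-II complex that sorts membrane proteins to lysosomes, had retention of 0.596% and 0.663% in the control libraries and 13.5% and 5.28% in the sh2 libraries at its intron (chr17:42773879-42774645, 767 nt; log2 fold change 3.89, SE 0.41, adjusted p = 5.43e-17). RCL1, which acts in ribosomal RNA processing, had retention of 0% and 0.677% in the control libraries and 34.1% and 14.7% in the sh2 libraries at its intron (chr9:4839860-4841201, 1342 nt; log2 fold change 6.07, SE 0.67, adjusted p = 1.57e-15). The RCL1 intron had 0 boundary reads in control replicate 1 and 6 in replicate 2.

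Among these 12 introns, those of MYH10 and FRA10AC1 reached the highest retention in sh2 replicate 1. FRA10AC1, whose gene lies at a folate-sensitive fragile site, had retention of 0.955% and 1.61% in the control libraries and 50.9% and 20.5% in the sh2 libraries at its intron (chr10:93694938-93698135, 3198 nt; log2 fold change 5.35, SE 0.59, adjusted p = 1.77e-15). MYH10 encodes non-muscle myosin IIB, and retention of its intron (chr17:8552145-8553954, 1810 nt) was 3.59% and 3.197% in the control libraries and 67.2% and 30.97% in the sh2 libraries (log2 fold change 4.76, SE 0.55, adjusted p = 2.92e-14). CCNT2, a cyclin of the P-TEFb kinase that releases paused RNA polymerase II, had retention of 3.01% and 1.71% in the control libraries and 45.4% and 26.8% in the sh2 libraries at its intron (chr2:134919013-134919809, 797 nt; log2 fold change 4.55, SE 0.53, adjusted p = 5.59e-14). In these 3 introns spliced joins were still seen in every library.

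One of these 12 more retained introns was of another kind. At the intron of the non-coding gene LOC105378179 (chr14:49861245-49861556, 312 nt) retention was 0.189% and 0.0264% in the control libraries and 40% and 21.2% in the sh2 libraries (log2 fold change 8.83, SE 0.90, adjusted p = 2.5e-18). Its boundary reads did not rise, being 11 and 6 in the control and 1 and 4 in sh2 at the 5′ end and 4 and 0 in the control and 3 and 3 in sh2 at the 3′ end. Spliced reads, in contrast, were 3967 and 11363 in the control and 3 and 13 in sh2. The high percentages in sh2 rest on 4 and 7 boundary reads. Each of these 12 introns passed the test with any 1 of the 4 libraries left out.

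**Figure D4:**
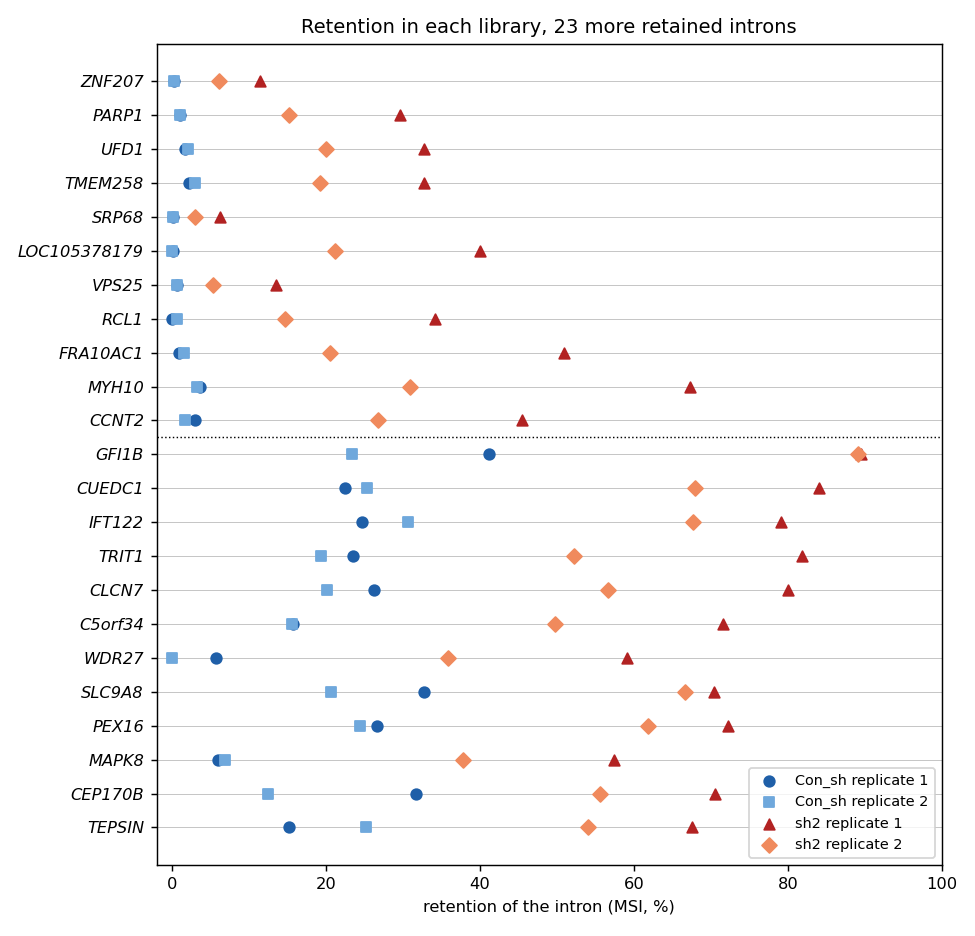
Retention in percent (x axis) of 23 more retained introns (y axis, by gene), each point being 1 library. Above the dotted line are 11 of the 12 more retained introns with the lowest adjusted p (1 per gene), and below it the 12 others with the largest mean rise and groups that do not overlap. Both sh2 libraries lie to the right of both controls in every row.

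Outside the 12 introns with the lowest adjusted p, those with the largest rises in percentage points mostly started from a control retention well above 0. MYH10, left out here as 1 of the first 12, rose by 45.7 points from a control mean of 3.39%. CLCN7, a lysosomal chloride-proton exchanger, had retention of 26.2% and 20.2% in the control libraries and 79.96% and 56.6% in the sh2 libraries at its intron (chr16:1459188-1460417, 1230 nt; log2 fold change 2.93, SE 0.40, adjusted p = 8.02e-10), and its 5′ boundary reads were 276 and 161 in the control and 1974 and 623 in sh2. PEX16, a protein of peroxisome assembly, had retention of 26.6% and 24.4% in the control libraries and 72.3% and 61.8% in the sh2 libraries at an intron of only 192 nt (chr11:45913939-45914130; log2 fold change 2.59, SE 0.42, adjusted p = 1.37e-06). These 2 calls held with any 1 library left out.

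Retention in MAPK8, which encodes the stress kinase JNK1, was 5.98% and 6.87% in the control libraries and 57.4% and 37.8% in the sh2 libraries at one of its introns (chr10:48424160-48425887, 1728 nt; log2 fold change 3.72, SE 0.64, adjusted p = 7.31e-06). This intron overlaps another listed intron. IFT122, a protein of transport along cilia, had retention of 24.7% and 30.6% in the control libraries and 79.1% and 67.7% in the sh2 libraries (chr3:129512413-129514388, 1976 nt; log2 fold change 2.89, SE 0.64, adjusted p = 0.0038). TEPSIN, an adaptor of vesicles leaving the trans-Golgi network, had 15.2% and 25.2% in the control libraries and 67.5% and 54.1% in the sh2 libraries (chr17:81237072-81237386, 315 nt; log2 fold change 2.66, SE 0.52, adjusted p = 0.00026). SLC9A8, a sodium-proton exchanger of the Golgi, had 32.7% and 20.7% in the control libraries and 70.4% and 66.7% in the sh2 libraries (chr20:49863068-49864738, 1671 nt; log2 fold change 2.60, SE 0.67, adjusted p = 0.034).

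Fewer reads stood behind 4 further introns. Those of C5orf34 and WDR27 lie within another listed intron, and that of CEP170B overlaps another listed intron. CUEDC1 had retention of 22.4% and 25.3% in the control libraries and 84% and 67.9% in the sh2 libraries (chr17:57867416-57868149, 734 nt; log2 fold change 3.41, SE 0.80, adjusted p = 0.00834), with 64 and 34 spliced reads in the control. C5orf34 had 15.7% and 15.6% in the control libraries and 71.6% and 49.7% in the sh2 libraries (chr5:43487112-43487908, 797 nt; log2 fold change 3.07, SE 0.73, adjusted p = 0.0125), and its intron overlaps the antisense gene C5orf34-AS1. CEP170B had 31.7% and 12.5% in the control libraries and 70.5% and 55.6% in the sh2 libraries (chr14:104877966-104878444, 479 nt; log2 fold change 2.66, SE 0.68, adjusted p = 0.033), and the control libraries lay far apart. WDR27 had 5.66% and 0% in the control libraries and 59.1% and 35.9% in the sh2 libraries (chr6:169633069-169634427, 1359 nt; log2 fold change 5.11, SE 1.25, adjusted p = 0.0173), with 3 and 0 boundary reads in the control.

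In GFI1B and TRIT1 the rise was at 1 boundary. GFI1B encodes a repressor of the erythroid and megakaryocytic lineages, and its intron (chr9:132976596-132978506, 1911 nt) had retention of 41.2% and 23.4% in the control libraries and 89.5% and 89.1% in the sh2 libraries (log2 fold change 4.25, SE 1.07, adjusted p = 0.0253). Its 5′ boundary had 0 reads in all 4 libraries, and reads at the 3′ boundary were 14 and 25 in the control and 119 and 49 in sh2, with a covered fraction between 0.223 and 0.405. TRIT1, which modifies transfer RNA, had retention of 23.5% and 19.3% in the control libraries and 81.8% and 52.2% in the sh2 libraries over an intron of 30441 nt (chr1:39852877-39883317; log2 fold change 2.98, SE 0.67, adjusted p = 0.00465) that also holds part of MYCL-AS1. Its 5′ boundary reads were 4 and 1 in the control and 3 and 9 in sh2, against 34 and 45 in the control and 240 and 131 in sh2 at the 3′ boundary. In these 2 introns the percentages describe reads at the 3′ end and not a retained intron over its length. The TRIT1 intron also lies within another listed intron.

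Of these 12 introns, 10 lost their call when at least 1 of the libraries was left out. Without sh2 replicate 1 the adjusted p was 1 for GFI1B, 1 for CUEDC1, 0.909 for IFT122, 1 for TRIT1, 1 for C5orf34, 1 for WDR27, 0.998 for SLC9A8, 0.146 for MAPK8, 1 for CEP170B, 0.317 for TEPSIN. Without control replicate 2 it was 0.767 for GFI1B, 0.145 for TRIT1, 0.109 for C5orf34, 0.611 for WDR27, 0.631 for SLC9A8, 1 for CEP170B. Without control replicate 1 it was 0.13 for CUEDC1, 0.118 for IFT122, 0.0832 for C5orf34, 0.126 for TEPSIN, and without sh2 replicate 2 0.152 for GFI1B, 0.159 for SLC9A8, 0.0892 for CEP170B.

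Of 43 genes that are known for a U12-type intron, 30 carried a more retained intron (69.8%), against 1.94% of all tested genes. This list was written from general knowledge with earlier results of these data known, so its count is not independent evidence. Many of its genes, among them MAPK8, PARP1, E2F3, UFD1 and EXOSC2, are also in lists given below, whose counts are not separate from this one. Of their 637 tested introns 43 were called (6.75%), and the median log2 fold change over all 637 was 0.11, beside 0.17 over all introns. Of the 13 genes without a call, PLCB3 came closest, with retention of 7.09% and 6.31% in the control and 32.96% and 13.6% in sh2 at its leading intron (log2 fold change 1.97, SE 0.54, adjusted p = 0.0883). NOP2 had 0.3304% and 0.569% in the control and 1.78% and 1.78% in sh2 (log2 fold change 1.97, SE 0.56, adjusted p = 0.125) and CHD1L 1.48% and 2.56% in the control and 6.85% and 5.82% in sh2 (log2 fold change 1.71, SE 0.50, adjusted p = 0.148). For MAPK9, BRAF, E2F1, E2F2, TXNRD2, HPS1, ATXN10, NCBP2 and TRAPPC2 the adjusted p of the leading intron was 0.543 or more.

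Among proteins of the minor spliceosome itself, 2 of 14 tested genes had a more retained intron (14.3%, against 1.94% of all tested genes). These were 3.49% of the list's 86 introns, against 0.278% of all, and the median log2 fold change of the 86 was 0.26. RNPC3, the protein that joins the U11 and U12 small nuclear RNPs, has a U12-type intron of its own. Its leading intron (chr1:103551793-103553273, 1481 nt) had retention of 11.4% and 5.76% in the control libraries and 46.5% and 25.6% in the sh2 libraries (log2 fold change 2.60, SE 0.61, adjusted p = 0.0087). The call was lost without control replicate 2 (adjusted p 0.578) and without sh2 replicate 1 (adjusted p 1).

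ZRSR2 was the other. One of its 11 tested introns (chrX:15818643-15820206, 1564 nt) had retention of 0.498% and 0.455% in the control libraries and 7.06% and 6.36% in the sh2 libraries (log2 fold change 3.84, SE 0.99, adjusted p = 0.0393). Behind it stood 2 boundary reads in each control library and 12 and 11 in the sh2 libraries, with spliced reads of 200 and 219 in the control and 79 and 81 in sh2. The call was lost with any 1 library left out (adjusted p 0.293 and 0.489 without control replicates 1 and 2, 0.531 and 0.152 without sh2 replicates 1 and 2) and with TMM offsets.

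The MAP kinase cascade carries signals from growth factors and stress to the nucleus, and 8 of 29 tested genes of it had a more retained intron (27.6%, against 1.94% of all tested genes). Among them were the ERK gene MAPK3, the JNK gene MAPK8, the p38 genes MAPK12 and MAPK14, the RAF kinase ARAF, and LZTR1, which removes RAS proteins. Of the list's 437 introns 13 were called (2.97%, against 0.278% of all), and the median log2 fold change of the 437 was -0.04, beside 0.17 over all introns. A second MAPK8 intron (chr10:48420321-48424087, 3767 nt) had retention of 1.87% and 2.99% in the control libraries and 38.3% and 17.8% in the sh2 libraries (log2 fold change 3.89, SE 0.58, adjusted p = 5.6e-08). This intron lies within another listed intron, as does the MAPK14 intron given below. MAPK12 had 16.9% and 13.1% in the control libraries and 48.5% and 43.2% in the sh2 libraries (chr22:50255695-50255809, 115 nt; log2 fold change 2.27, SE 0.42, adjusted p = 4.5e-05) and MAPK14 6.33% and 3.94% in the control libraries and 28.6% and 19.9% in the sh2 libraries (chr6:36076609-36095986, 19378 nt; log2 fold change 2.59, SE 0.48, adjusted p = 7.16e-05).

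LZTR1 had high retention in control cells already. Its leading intron had 16.7% and 15.1% in the control and 45.9% and 35.7% in sh2 (log2 fold change 1.86, SE 0.39, adjusted p = 0.000913), and that of ARAF had 5.52% and 6.65% in the control and 22.04% and 16.4% in sh2 (log2 fold change 1.87, SE 0.44, adjusted p = 0.00851). MAPK3 was at the edge of the test, with 0.8696% and 0.635% in the control and 5.46% and 2.72% in sh2 (log2 fold change 2.44, SE 0.64, adjusted p = 0.0482). MAPK12 was lost without control replicate 2 (adjusted p 0.0551), and MAPK14 without control replicate 2 or sh2 replicate 1 (adjusted p 0.111 each).

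Of 27 tested DNA repair genes, 3 had a more retained intron (11.1%, against 1.94% of all tested genes). These were 3 of 637 introns (0.471%), near the 0.278% of all, and the list's median was -0.16. A gene with many tested introns has more chances of a call, so the share of genes alone overstates the contrast for this list. PARP1 is described above. XRCC5 encodes Ku80, which holds broken DNA ends, and had retention of 1.44% and 0.742% in the control libraries and 8.56% and 3.43% in the sh2 libraries (chr2:216116843-216117745, 903 nt; log2 fold change 2.46, SE 0.40, adjusted p = 1.22e-06). MSH3, a mismatch repair protein, had 3.19% and 2.13% in the control libraries and 21.5% and 11.3% in the sh2 libraries (chr5:80672859-80674982, 2124 nt; log2 fold change 2.80, SE 0.71, adjusted p = 0.0292). Without control replicate 2 the adjusted p was 0.0788 for XRCC5, 0.611 for MSH3, and without sh2 replicate 1 0.145 for XRCC5, 1 for MSH3. MSH3 was also lost without control replicate 1 (adjusted p 0.0989).

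Cell cycle genes had more retained introns in 3 of 25 cases (12%, against 1.94% of all tested genes), with a list median of 0.23. Of the list's 278 introns 5 were called (1.80%, against 0.278% of all). The transcription factor E2F6, a repressor of the E2F family, had retention of 2.26% and 1.42% in the control libraries and 17.8% and 8.46% in the sh2 libraries (chr2:11450127-11451650, 1524 nt; log2 fold change 2.95, SE 0.49, adjusted p = 1.64e-06). E2F3, an activator of S phase genes, had 5.31% and 5.29% in the control libraries and 24.9% and 18.98% in the sh2 libraries (chr6:20482921-20486688, 3768 nt; log2 fold change 2.31, SE 0.43, adjusted p = 6.89e-05). Reads at its 5′ boundary were 43 and 48 in the control and 380 and 243 in sh2, and at its 3′ boundary 37 and 37 in the control and 93 and 62 in sh2. The cyclin gene CCNB1 stayed under 0.4% in every library, with 0.0455% and 0.0251% in the control libraries and 0.361% and 0.0968% in the sh2 libraries (chr5:69167284-69167907, 624 nt; log2 fold change 2.66, SE 0.65, adjusted p = 0.0172). Without sh2 replicate 1 the adjusted p was 0.0808 for E2F6, 0.0914 for E2F3, 1 for CCNB1, and CCNB1 was also lost without control replicate 1 (adjusted p 0.146) and control replicate 2 (adjusted p 1).

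Protein entry into and disposal from the endoplasmic reticulum held 8 genes with a more retained intron of 31 tested (25.8%, against 1.94% of all tested genes). Of the list's 299 introns 13 were called (4.35%, against 0.278% of all), and the list median was 0.28. Besides UFD1, TMEM258 and SRP68 they were SRP72, SPCS3, DERL1, DERL2 and ALG12. DERL2, a channel protein for misfolded proteins, had 4 called introns of 9 tested, and the leading one had retention of 9.18% and 6.404% in the control libraries and 41.2% and 26.002% in the sh2 libraries (chr17:5481143-5481295, 153 nt; log2 fold change 2.57, SE 0.46, adjusted p = 2.52e-05). It lies within another listed intron. ALG12, a mannosyltransferase of the sugar chain, had 3.41% and 2.76% in the control and 36.1% and 14.9% in sh2 (log2 fold change 3.30, SE 0.61, adjusted p = 5.73e-05). Both signal recognition particle genes stayed low: SRP72 had 0.894% and 0.409% in the control and 3.16% and 2.57% in sh2 (log2 fold change 2.22, SE 0.45, adjusted p = 0.00052). SPCS3, a subunit of signal peptidase, had 0.941% and 0.809% in the control and 6.36% and 3.199% in sh2 (log2 fold change 2.43, SE 0.44, adjusted p = 2.53e-05), and DERL1 0.731% and 1.09% in the control and 7.27% and 2.401% in sh2 (log2 fold change 2.32, SE 0.46, adjusted p = 0.0004). The leading DERL2 intron was lost without sh2 replicate 1 (adjusted p 0.168).

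The RNA exosome and decay list had 2 of 23 genes with a more retained intron (8.696%, against 1.94% of all tested genes), with a list median of 0.24. Of its 398 introns 4 were called (1.01%, against 0.278% of all). EXOSC2, an exosome cap subunit, had retention of 14.7% and 11.4% in the control libraries and 52.3% and 38.3% in the sh2 libraries (chr9:130699395-130700866, 1472 nt; log2 fold change 2.47, SE 0.41, adjusted p = 2.31e-06), and the nonsense-mediated decay helicase UPF1 had 1.84% and 0.716% in the control libraries and 11.7% and 3.86% in the sh2 libraries (chr19:18853351-18854600, 1250 nt; log2 fold change 2.62, SE 0.45, adjusted p = 4.96e-06). UPF1 was lost without control replicate 2 (adjusted p 0.154) and without sh2 replicate 1 (adjusted p 0.456).

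The list of mRNA export and capping also had 2 genes with a more retained intron, of 16 (12.5%, against 1.94% of all tested genes), with a list median of 0.15. Of its 222 introns 3 were called (1.35%, against 0.278% of all). THOC2, the scaffold of the THO export complex, had retention of 0.289% and 0.0894% in the control libraries and 7.23% and 3.37% in the sh2 libraries (chrX:123638124-123638933, 810 nt; log2 fold change 4.75, SE 0.72, adjusted p = 7.75e-08), with 3 and 1 boundary reads in the control and 79 and 43 in sh2. NCBP1, the large cap-binding subunit, had 0.826% and 1.63% in the control libraries and 19.1% and 9.98% in the sh2 libraries (chr9:97653909-97654879, 971 nt; log2 fold change 3.65, SE 0.55, adjusted p = 8.09e-08), and its intron overlaps the gene XPA. Of 12 tested RNA polymerase II subunits, POLR2E alone was called (8.33%, against the same 1.94%), at 1 of the list's 81 introns (1.23%). The list median was 0.18. POLR2E had 2.24% and 2.49% in the control libraries and 12.97% and 8.55% in the sh2 libraries at an intron of 124 nt (chr19:1089963-1090086, log2 fold change 2.29, SE 0.39, adjusted p = 5.18e-06).

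Of 22 tested membrane traffic genes, 3 had a more retained intron (13.6%, against 1.94% of all tested genes), with a list median of 0.22. Of the list's 309 introns 3 were called (0.971%, against 0.278% of all). VPS35, of the retromer that returns cargo from endosomes, had retention of 1.99% and 3.56% in the control libraries and 20.03% and 12.9% in the sh2 libraries (chr16:46681501-46682078, 578 nt; log2 fold change 2.77, SE 0.44, adjusted p = 4.31e-07). Its rise lay at the 3′ boundary, where reads were 21 and 62 in the control and 291 and 220 in sh2, while at the 5′ boundary they were 13 and 29 in the control and 26 and 29 in sh2. TRAPPC10, of a tethering complex at the Golgi, had 1.19% and 2.595% in the control libraries and 24.8% and 11.1% in the sh2 libraries (chr21:44079705-44080014, 310 nt; log2 fold change 3.44, SE 0.59, adjusted p = 7.52e-06). VPS16, of the complexes that tether lysosomes, had 14.7% and 13.3% in the control libraries and 54.9% and 33.7% in the sh2 libraries (chr20:2862935-2863064, 130 nt; log2 fold change 2.28, SE 0.48, adjusted p = 0.0015), and its intron lies within another listed one. Without sh2 replicate 1 the adjusted p was 0.124 for TRAPPC10, 1 for VPS16, and without control replicate 2 it was 0.0872 for VPS16.

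Splicing factors of the major pathway were called once. None of 17 tested genes for recognition of U2-type introns had a called intron (list median 0.25), a count near the share of 1.94% over all tested genes. Of 14 tested genes for kinases and SR proteins whose own RNAs are known to keep some introns in the nucleus, SRSF10 was called (7.14% of the list). This was 1 of the list's 120 introns (0.833%, against 0.278% of all), and the list median was 0.21. SRSF10 had retention of 0.289% and 0.505% in the control libraries and 2.02% and 1.36% in the sh2 libraries (chr1:23972013-23974973, 2961 nt; log2 fold change 2.08, SE 0.45, adjusted p = 0.00247). That call was lost without control replicate 1 (adjusted p 0.422), without control replicate 2 (adjusted p 0.051) and without sh2 replicate 1 (adjusted p 0.428).

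Most genes had a single more retained intron among many. Of the 269 genes, 189 had 1 and 80 had 2 or more, and in 71 of these 80 some of the called introns did not overlap. Genes with a call had a median of 13 tested introns. The highest numbers were 4 called introns each in MAPK8 (of 17 tested), DERL2 (of 9) and TRAPPC2L (of 6), chosen here after their values were seen. The named introns of MAPK8 and DERL2 overlap other listed introns, so such counts can hold alternative forms of 1 intron.

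The nearest tested introns of the same gene on either side of a more retained intron, not overlapping it, were often called too. Introns below the read minimum were passed over, so more than 1 exon can lie between such neighbours. Of 316 downstream neighbours in the same gene 70 were themselves more retained (22.2%), and of 333 upstream neighbours 69 (20.7%), against 0.278% of all introns. Where 2 called introns are neighbours, the pair can enter both counts, so these are not separate observations. Called introns that overlap can also share a neighbour. All neighbours lie in genes chosen for a called intron, so the share over all introns is no matched baseline. The 372 more retained introns, 10 of them without a single gene, stood beside 3700 other tested introns of the same genes. The median log2 fold change was 0.97 over the downstream and 0.75 over the upstream neighbours. Median retention of the downstream neighbours was 1.36% and 1.34% in the control and 3.07% and 2.35% in sh2. In 66 genes a more retained intron had such a neighbour. A read that spans a short exon can be counted at a boundary of both introns beside it, and its part in these values was not tested.

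Calls were spread unevenly over control retention and intron length. The share of introns more retained was 0.169% where control retention was under 0.5%, 0.481% between 5% and 10%, and 0.0368% at 50% or more. Of the introns under 100 nt 0.0714% were more retained, of those from 500 to under 1000 nt 0.417%, and of those from 5000 to under 10000 nt 0.125%. The median length was 1204 nt for the 372 introns (quartiles 568 and 2439) and 1507 nt for introns not called. Read numbers differ between these classes and set what can be called. The control libraries define the retention classes and enter the fold change as well.

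**Figure D5:**
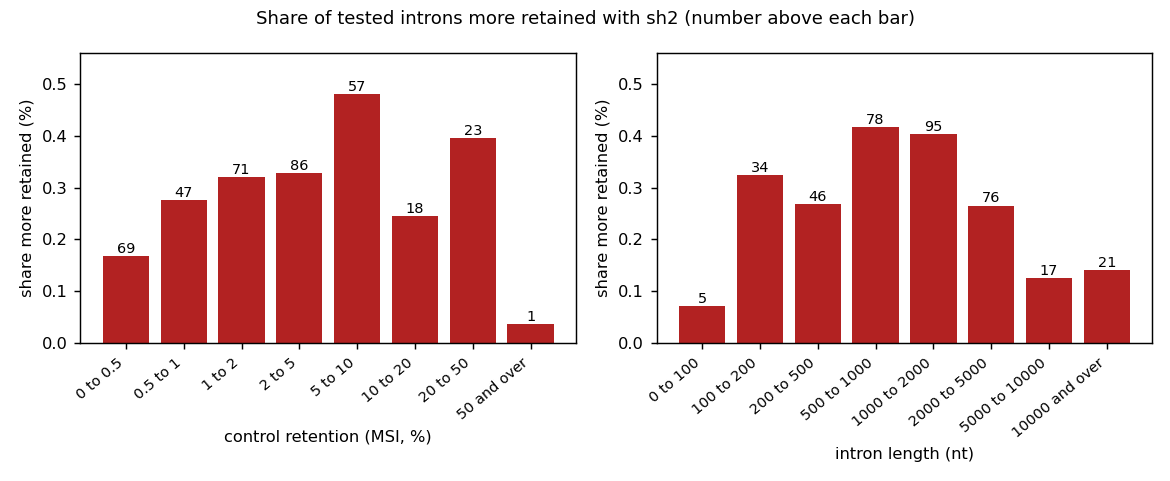
Share of tested introns that were more retained with sh2 (y axis, percent) by control retention (left, percent) and by intron length (right, nt). The number above each bar is the count of more retained introns. The bars reach 0.481% for control retention of 5 to 10% and 0.417% for lengths of 500 to 1000 nt.

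Less retained introns were few, and at most of them the spliced reads rose. In 24 of the 31 the mean spliced count was at least 2 times that of the control, and in 13 the mean boundary count was at most 0.5 times. Both sh2 libraries lay below both controls at 23, against 9.22% of all tested introns. The 31 lay in 19 genes (0.137% of tested genes), and 5 had no single gene.

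The globin cluster gave 2 of them. HBBP1, a globin pseudogene, had spliced reads of 101 and 135 in the control and 7251 and 1416 in sh2, and retention fell from 21.4% and 14.8% in the control to 0.705% and 1.598% in sh2 (chr11:5243329-5243449, 121 nt; log2 fold change -4.39, SE 0.45, adjusted p = 1.61e-18). Its 5′ boundary reads were 22 and 19 in the control and 57 and 22 in sh2, not lower than in the control. HBD, the delta globin gene, had spliced reads of 79 and 409 in the control and 8019 and 2102 in sh2, with retention of 4.82% and 2.97% in the control libraries and 0.342% and 1.34% in the sh2 libraries (chr11:5234214-5234341, 128 nt; log2 fold change -2.43, SE 0.51, adjusted p = 0.00127). These globin genes are close copies of each other and of their neighbours, so reads may be shared between them. HBD was lost without control replicate 1 (adjusted p 0.127), without control replicate 2 (adjusted p 0.187) and without sh2 replicate 1 (adjusted p 1).

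TUBB1, the tubulin of platelets, had spliced reads of 14 and 31 in the control and 306 and 51 in sh2 and retention of 50% and 34.04% in the control libraries and 4.23% and 15.7% in the sh2 libraries (chr20:59022954-59023489, 536 nt; log2 fold change -3.04, SE 0.80, adjusted p = 0.0474). Its call was lost without control replicate 1 (adjusted p 0.398), control replicate 2 (adjusted p 0.061) and sh2 replicate 1 (adjusted p 1). NCKAP1, a subunit of the WAVE complex that drives actin branching, was the reverse case. Its boundary reads were 7 and 18 in the control and 0 in both sh2 libraries, while spliced reads were 526 and 561 in the control and 609 and 635 in sh2 (chr2:182925819-182926815, 997 nt; adjusted p = 0.000669). It passed the test only in the fit without control replicate 1 among the leave-one-out fits, the adjusted p being 0.185 without control replicate 2, 0.165 without sh2 replicate 1 and 0.0728 without sh2 replicate 2.

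LRRC37A2 has close copies nearby. Spliced reads of its intron were 44 and 63 in the control and 521 and 523 in sh2 (chr17:46511609-46512315, 707 nt; log2 fold change -5.64, SE 0.90, adjusted p = 6.87e-07). It had no 5′ boundary read in any library, so its values are uncertain.

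Further less retained introns had high spliced counts in 1 sh2 library. In FBXL18 (chr7:5502032-5505411, 3380 nt; log2 fold change -4.34, SE 0.73, adjusted p = 3.55e-06) spliced reads were 131 and 167 in the control and 112 and 3018 in sh2, and without sh2 replicate 2 the adjusted p was 1. In NOMO3 and its close copy LOC102723728, whose introns have the same length of 2236 nt, spliced reads showed this in sh2 replicate 1. They were 3 and 15 in the control and 705 and 9 in sh2 for NOMO3, and 19 and 27 in the control and 1237 and 44 in sh2 for LOC102723728. Without sh2 replicate 1 the adjusted p was 1 for NOMO3, 1 for LOC102723728. NOMO3 was also lost without control replicate 1 (adjusted p 0.114).

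Set directly against the first shRNA (sh1) in a fit of all 6 libraries, 14 of the 403 called introns differed between the 2 shRNAs (3.47%, beside 46 of 134078 introns or 0.0343% in all). The 403 were called on the same sh2 libraries that enter this fit, so their larger share is no separate result. Retention in GARS1, a glycyl-tRNA synthetase, was 1.22% and 1.16% in the control libraries and 6.02% and 5.76% in the sh2 libraries, and 27.9% and 11.9% with sh1 (chr7:30621501-30622316, 816 nt; sh2 minus sh1 log2 difference -1.88, adjusted p = 0.00821). For the introns of ZNF207 and PARP1 described above, the log2 difference was 0.05 (SE 0.35) and -0.11 (SE 0.38), with adjusted p = 1 for both.

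The median log2 fold change in spliced reads of the 269 genes with a more retained intron was 0.02, beside 0.00 over all 16680 genes. Of the 269, edgeR called 0 and 56 had an unadjusted p under 0.05, 28 lower and 28 higher, against 433 lower and 718 higher of all genes. DESeq2 called 8 of them lower and 1 higher, against 46 lower and 95 higher in all. By both counts lower genes made up a larger part among the 269 than over all genes. By edgeR's count of unadjusted p-values higher genes did so as well. The gene sums can include the spliced reads of the called introns themselves, and a call favours low spliced reads in sh2. The choice of genes thus bears on these counts, and the differences were not tested. TMEM258 was among the lower ones with DESeq2, with 307 and 200 CPM in the control and 70.4 and 120 in sh2.

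Markers of blood lineages differed between the groups in the same libraries, mostly in sh2 replicate 1. The summed level of 13 erythroid genes was 4868 and 6643 CPM in the control and 20996 and 9505 CPM in sh2. In bulk RNA, more cells of a type and more RNA per cell cannot be told apart. HBG1, a fetal globin gene, had 1131 and 1687 CPM in the control and 4549 and 2676 in sh2, and HBE1, the embryonic globin gene, had 335 and 269 CPM in the control and 4899 and 808 in sh2. TFRC, the transferrin receptor, had 1192 and 1265 CPM in the control and 1185 and 1251 in sh2, with little difference between the libraries. None of the 13 passed edgeR's test (7 had an unadjusted p under 0.05, all higher), and DESeq2 called 3, among them HBG1 and HBG2.

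The other marker lists summed to at most 245 CPM in any library. Megakaryocytic genes summed to 136 and 151 CPM in the control and 245 and 196 CPM in sh2, with PF4 at 0. Myeloid genes summed to 188 and 127 CPM in the control and 49.7 and 91.2 CPM in sh2, where SPI1 had 76.5 and 49.4 CPM in the control and 13.9 and 27.3 in sh2. Lymphoid genes summed to 87.7 and 43.1 CPM in the control and 31.2 and 37.6 CPM in sh2, with IL7R at 0. Stromal and epithelial genes summed to 164 and 165 CPM in the control and 120 and 149 CPM in sh2. No intron of the erythroid, myeloid, lymphoid or stromal genes was called, and in lists this small that count is near the 0.301% of all introns. The part of these marker levels in the retention calls was not tested.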

How the data were processed

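The 6 deposited tables, 1 per library, came from polyA RNA of K562 cells. Per the file headers, they give for every intron raw counts of reads across its lower and its higher boundary and of reads spliced over it. The deposited covered fraction, from 0 to 1, gives the share of an intron's bases with reads, and the deposited percent named MSI is the retention used here. It was recomputed from the counts, with a largest deviation of 2.8e-14. Aligner, counting program and strand setting are not given in the sources used here, so reads of overlapping and antisense genes are not separated. Although the submitters' processing notes name hg19, 95.6% of introns lay inside RefSeq genes on GRCh38, against 62.6% and 62.9% after shifts of 100 kb either way. Gene names and strands were taken from that table (97.9% of tested introns), and no position was converted. The lower and higher boundary columns were assigned to 5′ and 3′ ends by strand.

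Each library entered the model with 2 counts, boundary and spliced, tied by a library term, and edgeR 4.0.16 (quasi-likelihood test, R 4.3.3) tested the group effect on their ratio in the 4 libraries, with 2 residual degrees of freedom and Benjamini-Hochberg adjustment at 0.05 over all 133882 introns. A gene's level was the sum of spliced reads of its non-overlapping introns, filtered with filterByExpr, scaled with TMM and tested likewise, and CPM refer to these sums. DESeq2 1.42.0 was an alternative. The scripts were tested on simulated data. Replicate libraries differed beyond counting noise in both groups.

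The members, the 12 gene lists and the 5 marker lists were chosen with earlier results of these data known. Named introns were, 1 per gene, the 12 more retained introns with the lowest adjusted p, the 12 others with the largest rise and groups that do not overlap, the 8 less retained ones with the lowest adjusted p, up to 4 called genes of each list, up to 6 called introns that also differed between the shRNAs, and ZRSR2. Leading introns of further list genes and the genes with 4 called introns were chosen after the values were seen. A few of the genes these rules name are counted but not reported here.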

Additional observations from a re-analysis of the deposited data

Results flagged for a closer look

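At 7 of the named introns called against the control, the effect of sh2 also differed from that of sh1 in edgeR's test of the difference itself over all 6 libraries. At LOC105378179 (chr14:49861245-49861556) the sh2 minus sh1 log2 difference was 6.16 (adjusted p = 2.31e-08), and retention with sh1 was 61.9% and 0.0752%, so the sh1 libraries themselves lay on either side of the sh2 libraries. At LOC102723728 (chr16:18424394-18426629) it was -4.06 (adjusted p = 6.62e-05), with 55.3% and 47.3% in sh1 against 1.94% and 22.8% in sh2. At its copy NOMO3 (chr16:16285507-16287742) it was -5.41 (adjusted p = 0.000145), with 95.5% and 75% in sh1 against 2.69% and 58.1% in sh2.

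At the FBXL18 intron named above (chr7:5502032-5505411) the difference was -3.64 (adjusted p = 0.0493), with 3.61% and 1.34% in sh1 and 1.32% and 0.116% in sh2. At the second FBXL18 intron (chr7:5491450-5500487) the difference was -3.89 (adjusted p = 1.33e-05), with 10.4% and 9.42% in sh1 and 3.401% and 4.97% in the control libraries and 5.07% and 0.247% in the sh2 libraries. At TNRC18-AS1 (chr7:5420269-5422792), whose intron overlaps TNRC18, it was -3.77 (adjusted p = 0.000145), with 11.9% and 5.49% in sh1 and 1.23% and 7.26% in the control libraries and 5.94% and 0.151% in the sh2 libraries. Spliced reads were 142 and 172 in the control and 103 and 3033 in sh2 for the second FBXL18 intron, and 120 and 115 in the control and 95 and 2981 in sh2 for TNRC18-AS1. In sh2 replicate 2 both were close to the 3018 of the first FBXL18 intron, and the other 3 libraries of the comparison had at most 172 reads in any of the 3 introns. At GARS1 (chr7:30621501-30622316) the difference was -1.88 (adjusted p = 0.00821), with all sh2 and sh1 libraries above both controls.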

How the results depend on the processing

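The count of 403 called introns (372 more, 31 less retained) was 705 (650 and 55) with the replicate block, that is, with the replicate number as a factor, and 149 (144 and 5) with DESeq2. It was 167 of 40772 introns with a mean covered fraction of at least 0.95, 12 with the smaller boundary doubled, 223 with A1 alone, 229 with A2 alone, 201 with the 5′ and 257 with the 3′ boundary alone (the last 2 added after seeing the data), and 130 to 476 with 1 library left out. It stayed within 1.5 times, at 290 to 420, with all 6 libraries, other read minimums, TMM or DESeq2 offsets, or introns overlapping no other. The replicate block rests on a shared number only. The check of that number gave 1 correlation for each pair of groups, 0.106 between sh2 and control over the 133882 tested introns. With 1 value for the pair of groups, it does not measure how alike single libraries were. The block gave 413 calls for A1 and 415 for A2 (50 to 239 and 43 to 255 with 1 library left out). The sh2 and sh1 libraries differed at 46 introns, at 116 with the block, at 24 to 49 with 1 library left out, and at 0 of 39971 with covered fraction of at least 0.95 (1487 with unadjusted p under 0.05). Genes called by spliced reads numbered 0 with edgeR, 141 with DESeq2, 1 without the filter, 1 with the block and 2 to 105 with 1 library left out. ZRSR2 had a log2 fold change of -1.16 with DESeq2 (adjusted p = 0.007501) and -1.32 to -1.01 with 1 library left out. The rise in covered fraction was 0.065, and 0.076 over introns overlapping no other.

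Of the 56 named introns, 21 of 45 more retained and 2 of 11 less retained ones kept their call with each library left out in turn. All 56 kept it with the block, 55 with TMM offsets, 30 of 51 with DESeq2 and 9 with the smaller boundary doubled. Without sh2 replicate 2, 2 reversed, FBXL18 at chr7:5491450-5500487 (log2 fold change 0.29, and -4.15 at the other end of the range with 1 library left out) and TNRC18-AS1 (0.64, and -4.82). The cause was not tested in any of these. With 2 libraries a group and few boundary reads at well-spliced introns, small changes there were not detectable.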
